A study of Mus musculus with 21 samples.

Results

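The 10 genes described here mark the cortical hem and the choroid plexus of the embryonic forebrain: Ttr, Otx2, Folr1, Lmx1a, Wnt2b, Wnt3a, Wnt8b, Rspo1, Rspo2 and Rspo3. They were chosen by symbol, and each had 1 row among the 23827 rows of every expression table. The tables hold RNA sequencing of E14.5 mouse embryos in 21 libraries, 7 groups with 3 replicates each. Every group carried 1 copy of the mCherryTRAP allele (Gt(ROSA)26Sor-mCherry-Rpl10a+/-), from a single targeted embryonic stem cell clone, in which Cre recombination lets the ubiquitous CAGGS promoter drive an mCherry-tagged large-subunit ribosomal protein. Immunoprecipitation of tagged ribosomes then yields the RNA engaged with ribosomes in recombined cells, named the translatome, while total RNA of a tissue is named the transcriptome.

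With Sox2Cre+/-, which recombines in all derivatives of the epiblast, the groups were the brain transcriptome, the brain translatome, the kidney transcriptome and the kidney translatome. With Cdh5CreERT2+/-, a tamoxifen-dependent Cre under an endothelial promoter, they were the brain EC translatome and the kidney EC translatome (EC, endothelial cell), from dams given tamoxifen by gavage. With Emx1Cre+/-, the group was the Emx1-lineage translatome, which covers cells that express Emx1 and cells whose ancestors did, chiefly in the dorsal telencephalon. The brain dissection took the forebrain with part of the diencephalon. By the paper's methods, tissue of as few as 1 embryo could be homogenized at a time, so the spread between replicates is that between tissue samples. Libraries without Cre were not analysed here, so the RNA that sticks to the beads has no measured level.

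The cortical hem is the strip of neuroepithelium at the medial edge of the pallium, next to the choroid plexus. It secretes Wnt and BMP ligands and is known as the organizer of the hippocampus, and it is also a source of Cajal-Retzius neurons. The choroid plexus epithelium develops from the roof plate beside it and in the roof of the diencephalon and hindbrain, and makes cerebrospinal fluid. R-spondins amplify Wnt signalling: they bind LGR receptors and withdraw the ubiquitin ligases ZNRF3 and RNF43, which otherwise remove Frizzled receptors from the cell surface.

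Promoter sequences were available for 6 of the 10 genes (Lmx1a, Wnt2b, Rspo1, Wnt3a, Wnt8b and 4 start sites of Otx2) in RefSeq's annotation of GRCm38.p6, and 2 of them are shown because Otx2 and Wnt3a were the genes with no read in the kidney transcriptome. Both are the 250 bases before a start site, on the minus strand of their chromosome, printed 5′ to 3′. The Otx2 window lies at chr14:48665110-48665359, before start site 3 of the 4, counted from the upstream end. Of the 4 Otx2 windows it is the only one with a match to a motif searched below. The Wnt3a window lies at chr11:59290752-59291001.
Otx2: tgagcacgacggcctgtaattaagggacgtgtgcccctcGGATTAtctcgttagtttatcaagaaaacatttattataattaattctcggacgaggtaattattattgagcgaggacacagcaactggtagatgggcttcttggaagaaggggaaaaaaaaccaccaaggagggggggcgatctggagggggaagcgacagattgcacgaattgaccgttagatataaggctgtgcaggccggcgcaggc
Wnt3a: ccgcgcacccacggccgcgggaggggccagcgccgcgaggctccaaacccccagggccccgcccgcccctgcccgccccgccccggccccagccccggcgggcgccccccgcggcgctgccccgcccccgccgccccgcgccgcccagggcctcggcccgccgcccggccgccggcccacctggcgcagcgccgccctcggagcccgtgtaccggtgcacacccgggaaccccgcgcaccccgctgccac
The Otx2 window held 48.4% G and C, and the Wnt3a window 87.6%. The capitals mark the 1 match to TAATCC, the bicoid-type homeodomain motif that Otx proteins bind, read here from the other strand and beginning 211 bases before the start site. TAATCC was searched on both strands and lay in 1 of the 9 windows of these genes, against 6.25% of the 32851 promoter windows of the same length in the table. CTTTGA, the core of TCF/LEF binding sites, lay in 0 of the 9 windows, against 13.8% of all windows. The 9 windows include the 4 of Otx2, some of which overlap, so they are not 9 separate promoters. The 2 motifs share no overlapping bases, since only 1 match was found, and a match in a window of letters is a description, not a binding site.

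Levels are given as RPKM, the authors' reads scaled to transcript length and library size, so that they can be set side by side between genes. Between 21760652 and 79231692 reads were counted on genes per library, with a median of 43190754. Differences are log2 fold changes of the read counts from edgeR's quasi-likelihood test with TMM scaling, each from 3 libraries against 3, and a gene was called at an adjusted p under 0.001 (Benjamini-Hochberg, over all rows tested). All 10 genes had a read in each comparison and were tested.

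The labelled tissues carried their markers. The summed RPKM of 6 endothelial markers (Cdh5, Esam, Kdr, Pecam1, Tek and Tie1) was 1649 to 1710 in the brain EC translatome, 79.0 to 93.2 in the brain translatome and 5.36 to 5.84 in the Emx1-lineage translatome. In kidney the endothelial sum was 1351 to 1509 in the EC translatome and 216 to 227 in the whole translatome. By the medians, it was 20.2-fold higher in EC than in the whole translatome in brain, but 6.53-fold in kidney. The sum of 6 pallial markers was 939 to 994 in the Emx1-lineage translatome and 465 to 477 in the brain translatome, while that of 8 subpallial markers was 64.2 to 68.1 against 272 to 296. In brain, 15 of 21 further genes of choroid plexus epithelium had a mean of at least 1 RPKM in the translatome, among them Kcne2 (7.35 ± 0.78 RPKM, SD, n = 3), a potassium channel subunit of that epithelium. The name choroid plexus gene did not hold across organs for Folr1, which was higher in the kidney than in the brain transcriptome, nor did the name hem gene for Rspo1.

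**Figure D1:**
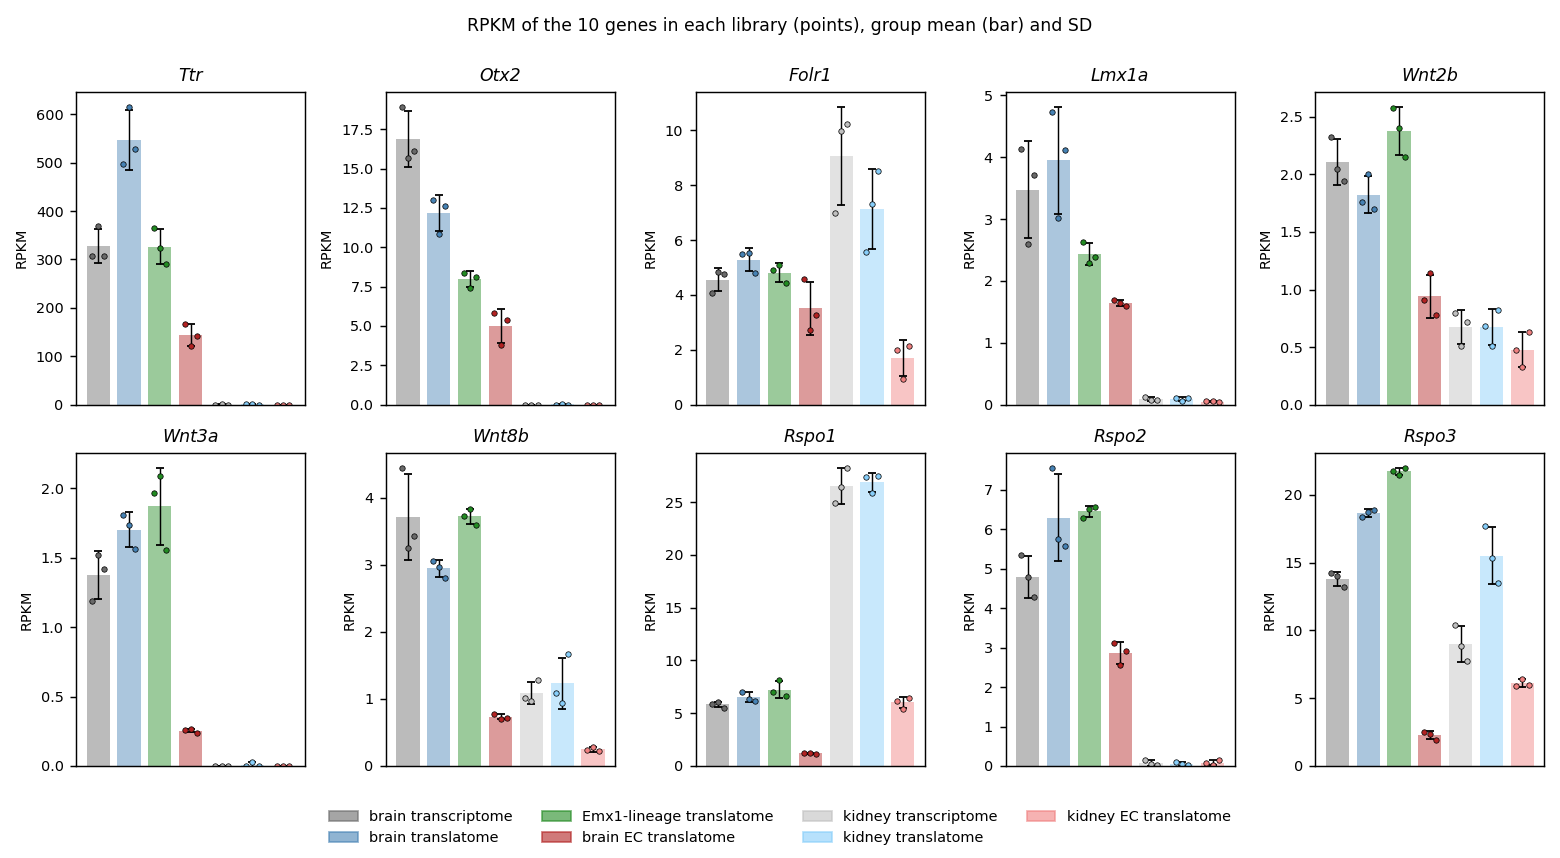
RPKM of the 10 genes (y axes, linear and starting at 0, scaled per gene) in the 7 groups. Points are libraries, bars group means and error bars SD (n = 3); Ttr, Otx2, Lmx1a, Wnt3a and Rspo2 are at or near 0 in all 3 kidney groups, whereas Folr1 and Rspo1 are highest in the kidney transcriptome and translatome.

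The choroid plexus genes were led by Ttr, which encodes transthyretin, the thyroid hormone carrier secreted into cerebrospinal fluid. Ttr RPKM was 307, 369 and 308 in the brain transcriptome, 497, 616 and 527 in the brain translatome, 365, 323 and 291 in the Emx1-lineage translatome and 166, 121 and 142 in the brain EC translatome. The brain translatome libraries were the highest, the transcriptome and Emx1-lineage libraries overlapped, and the EC libraries were the lowest of the brain. In the 3 kidney groups together no library exceeded 0.62 RPKM, or 18 reads.

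Otx2, a homeodomain transcription factor of the choroid plexus and of the diencephalon and midbrain, had another order. Its RPKM was 18.9, 15.7 and 16.1 in the brain transcriptome, 13.0, 10.9 and 12.7 in the brain translatome, 8.35, 7.38 and 8.12 in the Emx1-lineage translatome and 5.81, 3.76 and 5.39 in the brain EC translatome. These 4 groups did not overlap, with the brain transcriptome libraries highest and the brain EC libraries lowest. The Emx1-lineage and EC translatomes also differ from the transcriptome in the cells labelled. In kidney, 1 read was counted in all 9 libraries, in translatome replicate 2. Of the annotated exon bases of Otx2, 3.65% are shared with Otx2os1 on the opposite strand and 3.98% with Gm49154 on its own strand (GENCODE vM21). The library kit does not mark strand, so reads there cannot be told apart.

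Folr1, the folate receptor that carries folate across the choroid plexus, varied least among the brain groups. Its RPKM was 4.08, 4.84 and 4.75 in the brain transcriptome, 5.51, 5.54 and 4.80 in the brain translatome, 4.92, 5.09 and 4.42 in the Emx1-lineage translatome and 4.58, 2.71 and 3.25 in the brain EC translatome. The brain EC libraries lay below the brain translatome libraries, but overlapped the brain transcriptome libraries. In kidney, where the receptor is known in the proximal tubule, Folr1 reached 6.99, 9.99 and 10.2 RPKM in the transcriptome and 5.57, 7.33 and 8.50 in the translatome, against 2.00, 0.93 and 2.12 in the kidney EC translatome.

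Lmx1a, the LIM homeodomain factor that specifies the roof plate and hem, had 4.13, 2.60 and 3.71 RPKM in the brain transcriptome and 4.73, 3.01 and 4.11 in the brain translatome. It had 2.63, 2.28 and 2.38 RPKM in the Emx1-lineage translatome and 1.69, 1.64 and 1.60 in the brain EC translatome. Replicate 2 was the lowest of both Sox2Cre brain groups, and the 2 libraries of that number came from 1 tissue sample. No kidney library exceeded 0.13 RPKM, or 22 reads.

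The 3 Wnt ligands of the hem were weakly expressed in whole brain RNA. Wnt3a, the ligand on which hippocampal development depends, had 1.19, 1.52 and 1.42 RPKM in the brain transcriptome, 1.81, 1.74 and 1.56 in the brain translatome and 1.96, 2.08 and 1.56 in the Emx1-lineage translatome. In the brain EC translatome its values were 0.26, 0.27 and 0.24 RPKM, far below every other brain library. No read of Wnt3a was counted in the kidney transcriptome or the kidney EC translatome, and 2 reads in the kidney translatome.

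Wnt8b, a ligand of the hem and hippocampal primordium, had 4.45, 3.25 and 3.43 RPKM in the brain transcriptome, 3.07, 2.97 and 2.81 in the brain translatome and 3.73, 3.84 and 3.60 in the Emx1-lineage translatome. It had 0.77, 0.71 and 0.72 RPKM in the brain EC translatome. Unlike Wnt3a it was read in kidney, at a mean of 1.09 ± 0.16 RPKM in the transcriptome, 1.23 ± 0.38 in the translatome and 0.25 ± 0.03 in the kidney EC translatome (SD, n = 3 each).

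Wnt2b, the remaining ligand, had 2.33, 2.05 and 1.94 RPKM in the brain transcriptome, 1.76, 2.01 and 1.70 in the brain translatome and 2.57, 2.41 and 2.16 in the Emx1-lineage translatome. Its values in the brain EC translatome were 0.91, 1.14 and 0.77 RPKM, and in the 9 kidney libraries 0.32 to 0.83. The brain EC and kidney libraries overlapped.

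The R-spondins differed from each other mainly by organ. Rspo3 was the most abundant in brain, with 14.2, 14.0 and 13.2 RPKM in the transcriptome, 18.4, 18.8 and 18.9 in the translatome and 21.7, 21.5 and 22.0 in the Emx1-lineage translatome. These 3 groups did not overlap. The brain EC translatome held 2.50, 2.34 and 1.93 RPKM, the lowest values of Rspo3 in any group.

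In kidney, Rspo3 had 10.4, 8.87 and 7.76 RPKM in the transcriptome, 17.7, 15.3 and 13.5 in the translatome and 5.90, 6.42 and 6.01 in the EC translatome. An antisense gene, Gm48159, shares 13.1% of the exon bases of Rspo3, and reads from either strand were not separated. Rspo1 was the highest of these R-spondins in the kidney transcriptome and translatome. It had 24.9, 26.4 and 28.2 RPKM in the kidney transcriptome and 27.4, 25.9 and 27.5 in the kidney translatome, against 5.86, 6.08 and 5.54 in the brain transcriptome, 7.05, 6.34 and 6.14 in the brain translatome and 6.97, 8.14 and 6.61 in the Emx1-lineage translatome. In the EC translatomes Rspo1 was 1.23, 1.25 and 1.13 RPKM in brain and 6.17, 5.43 and 6.46 in kidney.

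Rspo2 was read almost wholly in brain. It had 5.34, 4.78 and 4.27 RPKM in the transcriptome, 7.55, 5.76 and 5.57 in the translatome, 6.30, 6.51 and 6.57 in the Emx1-lineage translatome and 3.13, 2.57 and 2.91 in the brain EC translatome. The 9 kidney libraries ranged from 0.01 to 0.16 RPKM.

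The comparison of total RNA asked which of these genes separate forebrain from kidney. In the brain transcriptome 8 of the 10 genes were higher, where 27.2% of all rows were, and Folr1 and Rspo1 were lower, where 26.3% of all rows were. By mean RPKM, Ttr was 2930-fold higher in brain, Rspo2 66.4-fold, Lmx1a 39.6-fold, Wnt8b 3.41-fold, Wnt2b 3.12-fold and Rspo3 1.53-fold. Without kidney transcriptome replicate 1, the fold of Rspo2 was 150.7. Against a floor of 3 reads over the 3 kidney libraries, Otx2 was at least 1189-fold and Wnt3a at least 154-fold higher. Rspo1 was lower by 2.00 on the log2 scale (SE 0.07, adjusted p = 8.6e-10). Folr1 was lower by 0.81 (SE 0.14, adjusted p = 3.4e-04), a call that was lost without any 1 of 5 of the 6 libraries, kidney transcriptome replicate 1 being the exception, with log2 fold changes between -0.97 and -0.73 over all 6.

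Of 6 R-spondin family and receptor genes, 5 were lower in brain, where 26.3% of all rows were, with a median log2 fold change of -2.43, against -0.02 over all rows. Among these, Lgr4, an R-spondin receptor, had 41.6 ± 1.9 RPKM in the kidney transcriptome and 3.56 ± 0.12 in the brain transcriptome. Lgr5 had 3.87 ± 0.16 against 0.19 ± 0.05 RPKM, and Rnf43 4.04 ± 0.16 against 0.46 ± 0.01 (SD, n = 3 each). The other Wnt ligands were split: of 16, 4 were higher in brain, such as Wnt7a (14.3 ± 0.7 against 0.06 ± 0.03 RPKM), and 8 lower, such as Wnt4 (1.12 ± 0.11 against 41.9 ± 1.8 RPKM) and Wnt11 (0.15 ± 0.05 against 16.8 ± 0.5 RPKM). Over all rows, 27.2% were higher and 26.3% lower.

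The brain translatome was set against the brain transcriptome to ask which of these transcripts are over- or under-represented on tagged ribosomes. The paper could not fully exclude a bias from unequal levels of the tagged protein between cell types. Such a bias was not tested here. Ttr and Rspo3 were higher, 2 of 10 genes, where 18.6% of all rows were; 0 of 10 were lower by edgeR, where 18.5% were, but 2 had an unadjusted p under 0.05 in that direction (Otx2 and Wnt8b) and 1 was called by DESeq2 (Otx2). Ttr was higher by 0.77 on the log2 scale (SE 0.09, adjusted p = 2.7e-06) and Rspo3 by 0.46 (SE 0.06, adjusted p = 2.0e-05). Otx2 had a log2 fold change of -0.44 (SE 0.09, adjusted p = 0.00107), and Rspo2 one of 0.43 (SE 0.11, adjusted p = 0.0052). The same-numbered libraries came from the same tissue sample, and with the tissue sample as a block Otx2 was called lower (-0.44, adjusted p = 1.79e-06) and Rspo2 higher (0.42, adjusted p = 1.11e-05).

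Brain transcriptome replicate 1 shared a sequencing lane with the 3 brain translatome libraries. Within that lane, in which the lone transcriptome library is assumed to vary like the others, the log2 fold change of Ttr was 0.84 (adjusted p = 3.15e-05), that of Otx2 -0.62 (adjusted p = 0.00121) and that of Rspo3 0.41 (adjusted p = 0.00166). The call of Rspo3 was thus lost there. Around these genes, 8 of 16 roof plate and hem genes were higher in the translatome, where 18.6% of all rows were, with a median log2 fold change of 0.40 against -0.01 over all rows. They included the ligands Bmp4, Bmp6 and Bmp7 and the BMP target Id3 (53.5 ± 5.3 against 26.1 ± 3.1 RPKM, SD, n = 3 each).

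In kidney, 1 of the 10 genes was higher in the translatome than in the transcriptome, where 14.9% of all rows were, and the other 9 were not called. Rspo3 was higher by 0.78 on the log2 scale (SE 0.12, adjusted p = 2.8e-04), in 3 of 3 translatome libraries, but the call was lost without translatome replicate 1 (0.68, adjusted p = 0.00101), without translatome replicate 2 (0.80, adjusted p = 0.00131) and within the lane shared by translatome replicate 3 and the transcriptome libraries (0.59, adjusted p = 0.0169). With the tissue sample as a block, Folr1 was called lower (-0.36, adjusted p = 2e-05) and Ttr higher (1.88, adjusted p = 0.000961), the latter on 2 to 18 reads per translatome library. The difference between the organs was tested as an interaction: 0 of the 10 genes passed without the block, where 6.47% of all rows did, and 2 had an unadjusted p under 0.05, Folr1 and Rspo3. With the block, Folr1 (0.59, adjusted p = 0.000362) and Rspo3 (-0.34, adjusted p = 0.000838) were called, brain minus kidney.

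**Figure D2:**
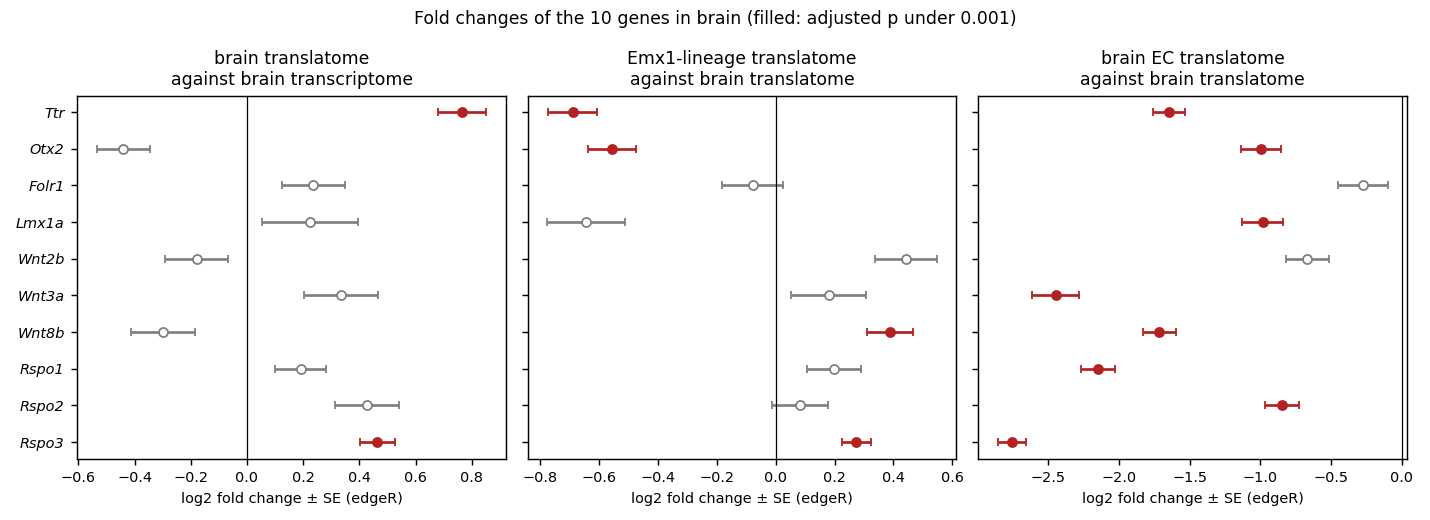
Log2 fold changes with standard errors (x axes) of the 10 genes (y axis) in 3 brain comparisons; filled points were called at an adjusted p under 0.001. Against the brain translatome, Ttr and Otx2 are lower in both cell-type translatomes, whereas Wnt8b and Rspo3 are slightly higher in the Emx1-lineage and lower in the EC translatome; both comparisons share the brain translatome libraries.

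The Emx1-lineage translatome was compared with the brain translatome to ask which of these transcripts lie in dorsal telencephalic descendants. Here 2 of 10 genes were lower, where 12.8% of all rows were, and 2 were higher, where 9.2% were. The lower genes were Ttr (-0.69, SE 0.08, adjusted p = 8.2e-06) and Otx2 (-0.56, SE 0.08, adjusted p = 6.8e-05), at 59.7% and 65.3% of their RPKM in the brain translatome. Lmx1a, at 61.6%, narrowly missed the threshold (-0.64, SE 0.13, adjusted p = 0.00104). It was called with RLE factors (adjusted p = 0.000722), with library totals (0.000531) and by DESeq2 (4.15e-05), and without brain translatome replicate 2 (-0.80, adjusted p = 7.3e-06) or Emx1-lineage replicate 1 (-0.72, adjusted p = 0.000768). The call of Otx2 was lost without brain translatome replicate 1 (-0.50, adjusted p = 0.00117) and in a fit of all 21 libraries (adjusted p = 0.00351).

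The higher genes were Rspo3 (0.27, SE 0.05, adjusted p = 3.9e-04) and Wnt8b (0.39, SE 0.08, adjusted p = 9.5e-04), both in 3 of 3 libraries. The call of Wnt8b was lost without any 1 of the 6 libraries (0.36 to 0.42), and that of Rspo3 without any 1 of 5 (0.26 to 0.29 over all 6), brain translatome replicate 3 being the exception. Both were also lost in the fit of all 21 libraries and when library totals were used without composition factors. Wnt2b had a log2 fold change of 0.44 (SE 0.11, adjusted p = 0.00307) and no overlap between the groups. For Folr1, Wnt3a, Rspo1 and Rspo2 the groups overlapped, and their log2 fold changes lay between -0.08 and 0.20.

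In bulk RNA, fewer cells of a type and less RNA per cell cannot be told apart. Marker sums also differed between these groups, not all in the same direction. The 6 diencephalic markers summed to 47.8 to 49.6 RPKM in the Emx1-lineage translatome against 153 to 183 in the brain translatome, 28.5% by the medians. Of these 6, 5 still had at least 1 RPKM in the Emx1-lineage translatome. Markers of meninges and mesenchyme summed to 10.5 to 12.4 against 62.6 to 73.4 RPKM, with 4 of 5 at 1 RPKM or more. Of 6 pigment epithelium markers, Rpe65 and Tyr had no read in the Emx1-lineage translatome, and the sum was 12.0 to 12.4 against 5.09 to 5.16 RPKM. In that list 1 marker, Dct, had at least 1 RPKM and was the 1 called higher of the 5 tested, and the median log2 fold change was -0.38. Their part in the results was not tested.

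Related genes split in the Emx1-lineage. Of 16 roof plate and hem genes, 6 were higher, where 9.2% of all rows were, and 8 lower, where 12.8% were. The higher ones were transcription factors, such as Dmrta2 (27.9 ± 1.8 against 15.1 ± 0.8 RPKM), Dmrt3 (10.7 ± 0.6 against 6.01 ± 0.77) and Trp73, a marker of Cajal-Retzius cells (11.6 ± 0.5 against 7.54 ± 0.44; SD, n = 3 each). The lower ones included Bmp4 (1.17 ± 0.23 against 3.13 ± 0.42), Bmp5 (0.89 ± 0.10 against 3.00 ± 0.37) and Lmx1b (0.21 ± 0.08 against 1.49 ± 0.68), as well as the BMP target Id3. The median log2 fold change of the list was -0.59, against 0.00 over all rows.

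Of 21 further choroid plexus genes, 7 were lower, where 12.8% of all rows were, with a median of -0.37. The lower ones were led by Igf2 (13.4 ± 0.6 against 77.0 ± 11.9 RPKM), Enpp2 (3.38 ± 0.07 against 12.5 ± 1.2) and Calml4 (4.87 ± 0.54 against 10.2 ± 1.2). Igf2 and Enpp2 are not particular to that epithelium, since Igf2 is also made by mesenchyme and vessels. The channel subunit Kcne2 had 7.84 ± 0.18 against 7.35 ± 0.78 RPKM and was not called (adjusted p = 0.162), nor was the ciliogenesis factor Foxj1 (9.52 ± 0.37 against 11.3 ± 0.9, adjusted p = 0.0342; SD, n = 3 each). Among 16 other Wnt ligands, 2 were higher, among them Wnt10a, where 9.2% of all rows were higher. The 4 lower ones, where 12.8% of all rows were lower, included Wnt3 (0.78 ± 0.10 against 3.58 ± 0.19 RPKM).

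Set against the brain transcriptome, the same Emx1-lineage libraries had 3 genes higher, where 25.4% of all rows were, and 1 lower, where 23.8% were. All 3 R-spondins were higher: Rspo1 by 0.47 (SE 0.09), Rspo2 by 0.59 (SE 0.08) and Rspo3 by 0.81 (SE 0.05, adjusted p = 2.1e-09). Otx2 was lower (-0.92, SE 0.08, adjusted p = 6.6e-08). The call of Rspo1 was lost without Emx1-lineage replicate 2 (0.38, adjusted p = 0.00145) and with library totals (0.31, adjusted p = 0.00554), and that of Rspo2 in the fit of all 21 libraries (0.49, adjusted p = 0.0396). Wnt3a had a log2 fold change of 0.59 (SE 0.13, adjusted p = 0.0011). This comparison mixes lineage with ribosome association, and it shares the Emx1-lineage libraries with the comparison to the translatome.

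The brain EC translatome was compared with the brain translatome to ask how the levels of these transcripts differed in ribosome-bound RNA of endothelial cells. All 10 genes lay lower in every EC library than in any brain translatome library, as 44.4% of all rows did, and 8 were called lower, where 21.4% of all rows were. Rspo3 had the largest difference (-2.76, SE 0.10, adjusted p = 4.5e-11), followed by Wnt3a (-2.45, SE 0.16), Rspo1 (-2.15, SE 0.12), Wnt8b (-1.72, SE 0.12) and Ttr (-1.64, SE 0.11). Otx2 (-0.997, SE 0.14), Lmx1a (-0.98, SE 0.15) and Rspo2 (-0.85, SE 0.12) were lower by less. Wnt2b (-0.67, SE 0.15, adjusted p = 0.00189) and Folr1 (-0.28, SE 0.18, adjusted p = 0.197) were not called.

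The RPKM left in the EC translatome differed widely between these genes. As a share of the brain translatome it was 12.1% for Rspo3, 15.0% for Wnt3a, 18.5% for Rspo1, 24.9% for Wnt8b and 26.2% for Ttr. It was 41.0% for Otx2, 41.6% for Lmx1a, 45.6% for Rspo2, 51.6% for Wnt2b and 66.5% for Folr1. By the medians, the marker sums of other brain tissues stood at 17.2% for the 6 pallial, 22.0% for the 8 subpallial and 31.9% for the 6 diencephalic markers. All were called lower, where 21.4% of all rows were, except the diencephalic Irx3, which was higher (8.29 against 3.40 RPKM). The subpallial Lhx6 had 13.3 RPKM in brain EC. Irx3 and Lhx6 were also called higher in the kidney EC than the kidney translatome (58.2 against 13.6 and 16.1 against 3.02 RPKM). These genes were thus not confined to forebrain. In the EC libraries 6 of 6 pallial, 7 of 8 subpallial and 5 of 6 diencephalic markers had at least 1 RPKM, with sums of 76.8 to 101, 62.0 to 63.4 and 46.8 to 57.3 RPKM; in the brain translatome the ranges were 465 to 477, 272 to 296 and 153 to 183. The sum of 5 markers of meninges and mesenchyme rose from 62.6 to 73.4 RPKM in the brain translatome to 106 to 143 in the EC translatome. The part of these cells in the results was not tested.

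TMM scaling and RPKM differ in the EC comparisons. Over the 11924 rows above 1 RPKM in both groups, the log2 ratio of RPKM was lower than edgeR's log2 fold change by a median of 0.29, so the shares above are lower than the fold changes read alone would give. With library totals in place of TMM, Wnt2b was called lower as well (-0.96, adjusted p = 9.18e-05), and the other calls stood. Wnt2b was also called by DESeq2 (-0.67, adjusted p = 0.00039) and without brain EC translatome replicate 2 (-0.83, adjusted p = 0.000149). Without brain translatome replicate 1, Otx2 (-0.94, adjusted p = 0.00164) and Lmx1a (-0.83, adjusted p = 0.00117) were no longer called.

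Choroid plexus genes did not share a common level in the EC translatome either. Kcne2 had 5.50 ± 0.83 RPKM, against 7.35 ± 0.78 in the brain translatome, and Kcnj13, another potassium channel, 1.02 ± 0.41 against 1.25 ± 0.07; neither was called (adjusted p = 0.412 and 0.966). Foxj1 was lower (4.10 ± 0.43 against 11.3 ± 0.9, adjusted p = 1.9e-07), as was Calml4 (2.93 ± 0.61 against 10.2 ± 1.2, adjusted p = 2.5e-06; SD, n = 3 each). Of the 21 genes of the list, 3 were lower and 5 higher, where 21.4% of all rows were lower and 24.8% higher. The higher ones included Igf2 (277 ± 12 against 77.0 ± 11.9 RPKM) and Enpp2 (83.0 ± 12.0 against 12.5 ± 1.2), genes of wider expression.

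Other genes of the Wnt pathway were divided in the EC translatome. Of 12 Wnt targets and feedback inhibitors 7 were higher, where 24.8% of all rows were, and 3 lower, where 21.4% were, with a median log2 fold change of 0.96 against -0.01 over all rows. Apcdd1, a Wnt inhibitor induced by Wnt signalling, had 669 ± 38 RPKM against 71.1 ± 8.6, Lef1, a nuclear effector, 51.0 ± 2.5 against 13.1 ± 0.4, Tcf7 64.1 ± 0.9 against 6.23 ± 0.86 and Axin2, a feedback inhibitor, 19.3 ± 0.7 against 13.7 ± 1.0 (SD, n = 3 each).

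Of 12 frizzled and LRP receptors 5 were higher and 4 lower, with a median log2 fold change of 0.13. Over all rows, 24.8% were higher and 21.4% lower, which applies to each count of this paragraph. Of 6 R-spondin family and receptor genes 1 was higher, and the median was -0.33. The higher ones were led by Fzd6 (60.6 ± 4.1 against 4.90 ± 0.25 RPKM), Fzd4 (17.2 ± 1.0 against 1.54 ± 0.07) and the co-receptor Lrp5 (38.3 ± 1.7 against 10.1 ± 0.5). Znrf3, the R-spondin-regulated ligase, was the higher one of the latter (4.04 ± 0.60 against 2.41 ± 0.09; SD, n = 3 each), while Lgr4 did not pass the test (2.30 against 2.86 RPKM, adjusted p = 0.819). Among 16 other Wnt ligands 4 were lower, including the neural ligands Wnt7a (4.11 ± 0.44 against 17.8 ± 0.6) and Wnt7b (18.4 ± 1.9 against 81.0 ± 4.5), and 2 were higher, one of them Wnt6 (5.21 ± 2.11 against 1.34 ± 0.26).

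**Figure D3:**
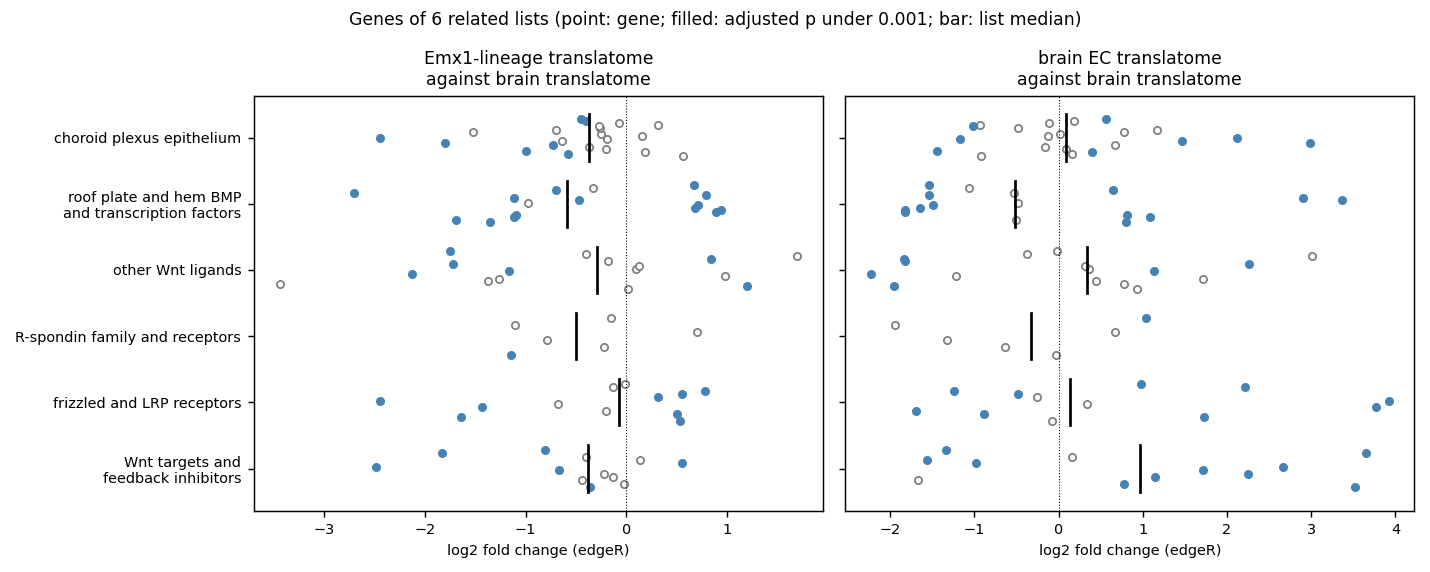
Log2 fold changes (x axes) of the genes of 6 lists related to the hem, the choroid plexus and Wnt signalling (y axis) in the Emx1-lineage (left) and the brain EC translatome (right), both against the brain translatome. Each point is a gene, filled where called, and the bar is the list's median; the list of Wnt targets has a median of -0.38 on the left and 0.96 on the right.

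The kidney EC translatome had 4 of the 10 genes lower than the kidney translatome, where 15% of all rows were. Wnt8b was lower by 1.97 on the log2 scale (SE 0.26), Rspo1 by 1.80 (SE 0.09, adjusted p = 3.4e-08), Folr1 by 1.70 (SE 0.26) and Rspo3 by 0.99 (SE 0.10, adjusted p = 1.0e-05). Folr1 was no longer called without kidney translatome replicate 3 (-1.56, adjusted p = 0.00286). Otx2 and Wnt3a stood at or under 3 reads over each group, and Ttr at 5, 1 and 2 reads in the EC libraries, so no difference was detectable at this depth for Otx2 and Wnt3a.

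Of 12 Wnt targets and feedback inhibitors, 11 were lower in the kidney EC translatome, where 15% of all rows were, with a median of -1.97 against -0.04 over all rows. They included Dkk1 (1.67 ± 0.21 against 11.9 ± 0.3 RPKM) and Sfrp2 (19.5 ± 5.1 against 116.9 ± 4.0; SD, n = 3 each), both secreted inhibitors. Markers of nephron progenitors and stroma moved as well: the sum of 3 was 34.9 to 47.0 RPKM in the kidney EC translatome against 232 to 277 in the kidney translatome, 16.8% by the medians, with all 3 above 1 RPKM. Their part in the results was not tested.

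The difference between EC and whole translatome was itself compared between the organs, in a fit of 12 libraries. It was called for 1 of the 10 genes, Rspo3, where 25.1% of all rows were called in either direction and 8.6% in its direction. Rspo3 was 12.1% of the whole translatome's RPKM in brain EC and 39.4% in kidney EC, and the log2 fold changes differed by -1.74, brain minus kidney (SE 0.15, adjusted p = 5.8e-08). The median over all rows of this difference was 0.15. Folr1 had a difference of 1.45 (SE 0.35, adjusted p = 0.00255), from -0.28 in brain and -1.70 in kidney.

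**Figure D4:**
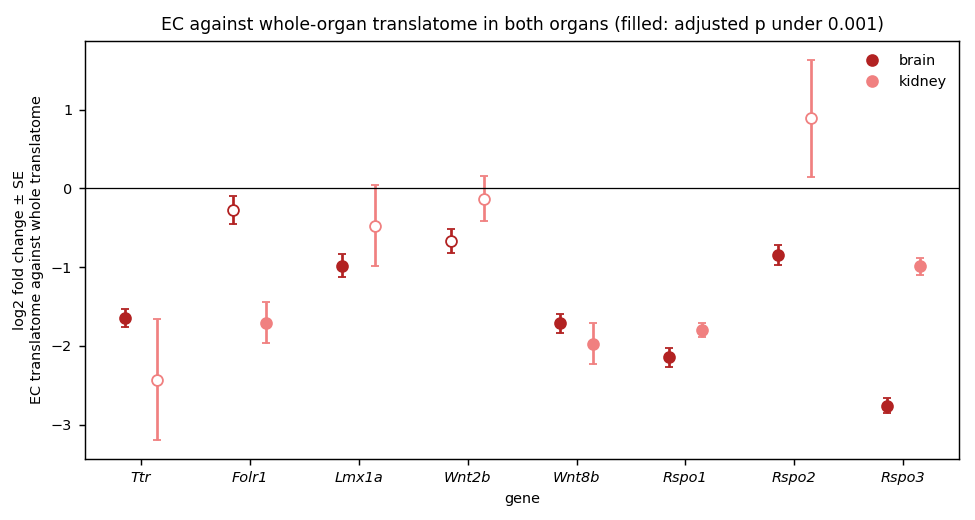
Log2 fold change with standard error (y axis) of the EC translatome against the whole translatome in brain and kidney for 8 of the 10 genes (x axis); Otx2 and Wnt3a are left out because both kidney groups were at or under 3 reads. Filled points were called at an adjusted p under 0.001; Rspo3 lies at -2.76 in brain and -0.99 in kidney, whereas Rspo1 lies at -2.15 and -1.80.

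Between the 2 EC translatomes, 6 of 10 genes were higher in brain, where 20.1% of all rows were, and 2 were lower, where 16.9% were. Ttr was 2733-fold higher by mean RPKM (143 ± 22 against 0.05 ± 0.04), Lmx1a 33.9-fold, Rspo2 33.7-fold and Wnt8b 2.99-fold. Without kidney EC translatome replicate 1 the fold of Ttr was 4414, and without replicate 3 that of Rspo2 was 60.4. Otx2 was at least 339-fold and Wnt3a at least 27.6-fold higher, against a floor of 3 reads over the kidney EC libraries. Markers of other forebrain tissues were also higher in the brain EC translatome. These were 5 of 6 pallial, 7 of 8 subpallial and 5 of 6 diencephalic markers, with median log2 fold changes of 8.42, 8.90 and 3.67. Of the diencephalic markers, 1 was lower. The part of such cells in these differences was not tested. Rspo1 (-2.28, SE 0.13) and Rspo3 (-1.39, SE 0.12, adjusted p = 2.4e-06) were lower in brain EC. Rspo3 was thus lower in brain EC but higher in brain total RNA. Folr1, lower in brain total RNA, had a log2 fold change of 1.10 between the EC translatomes (SE 0.29, adjusted p = 0.00708), with every brain EC library above every kidney EC library; it was called higher by DESeq2 (adjusted p = 0.000865) and in the fit of all 21 libraries (adjusted p = 7.56e-05). Wnt2b had a log2 fold change of 1.00 (SE 0.25, adjusted p = 0.00473) and was called higher by the same alternatives (adjusted p = 0.000701 and 6.48e-05). The difference between the 2 organ comparisons was not tested for any of these genes.

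Likeness to other genes was measured by Pearson's r of log2(RPKM + 1) over the 21 libraries, among 14558 rows with a mean of at least 1 RPKM in a group. It describes patterns that are set largely by the split between brain and kidney and that share libraries and depth. The row most like Ttr was Psd (r = 0.998), followed by Map6 and Sox2, a neural stem cell factor (103.7 RPKM in the brain translatome). Otx2 was most like Lhx9, a LIM homeodomain factor of the thalamus (r = 0.998; 21.5 RPKM in the brain translatome, 14.8 in the Emx1-lineage and 7.48 in the brain EC translatome).

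Lmx1a was most like Lhx5, a LIM homeodomain factor of the hem and diencephalon (r = 0.991), Wnt3a most like Insm2 (r = 0.994) with Calb2 at rank 3 (r = 0.991), and Rspo2 most like 1500009C09Rik (r = 0.997). Wnt2b was most like St8sia5 (r = 0.978), Wnt8b most like Zfp846 (r = 0.989) and Rspo3 most like Flot2 (r = 0.980). Rspo1 and Folr1, with their kidney levels, were most like Sema3c (r = 0.989) and Eps8 (r = 0.955). Among the 10 genes themselves, Ttr and Rspo2 had the highest r (0.988), then Otx2 and Lmx1a (0.987), while Ttr and Folr1 had one of -0.05. With 0.1 in place of 1 added to the RPKM, Psd, Map6 and Sox2 were no longer among the 3 rows most like Ttr, nor was St8sia5 for Wnt2b, Calb2 for Wnt3a or 1500009C09Rik for Rspo2; the other rows named kept a place among the 3.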

How the data were processed

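The authors mapped reads of unstranded TruSeq libraries to GRCm38 (mm10) with RUM 2.04 and counted them on the UCSC refGene annotation with rpkmforgenes. They deposited, per gene, the read count without normalization and the RPKM. Both columns of all 21 tables were used. Sample groups came from the sample labels; lanes and tissue samples from the study's supplement. The 10 genes and all gene lists were chosen with earlier results of these data known, and the 392 rows that repeat another row's symbol and accession were kept.

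Read counts went into the quasi-likelihood test of edgeR 4.0.16 (R 4.3.3; TMM, glmQLFit, glmQLFTest) in 8 pairwise comparisons of 3 libraries with 3 and 2 interaction fits, over rows with at least 1 read, with Benjamini-Hochberg adjustment and a threshold of 0.001. Each standard error is the log2 fold change over the root of F. P-values measure the spread between tissue samples. Unless the block is named, those of translatome against transcriptome come from fits that ignore the shared tissue samples. No pair of libraries held identical values. A fold against a group without reads uses 3 reads over the group and covers counting error only.

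Same-numbered brain transcriptome and translatome libraries, and likewise in kidney, came from 1 tissue sample. The deviations from group means of these pairs correlated at 0.386 to 0.617 in brain and 0.552 to 0.622 in kidney. Those of same-numbered brain and kidney EC libraries correlated at 0.173 to 0.347, which was also taken as pairing. The values printed for brain EC against kidney EC are from the fit without that pairing, and the replicate block changed no call there.

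Text names the 10 genes, the 3 rows most like each, and up to 4 genes per list with the largest called change and at least 1 RPKM in a group; other list genes (Kcne2, Kcnj13, Foxj1, Dmrt3, Dmrta2, Trp73, Axin2, Lgr4) were chosen after their values were seen. Exon overlaps used GENCODE vM21, promoters and motifs RefSeq's GRCm38.p6. On simulated data at the same threshold, edgeR found 87 of 98 genes changed by 1 on the log2 scale in the brain translatome against the transcriptome and 84 of 93 in the Emx1-lineage against the brain translatome, and 100 of 102 and 106 of 107 changed by 2. The simulation gave all genes the same spread between replicates and changed only genes above a set number of reads. These shares therefore need not hold for genes that vary more or have fewer reads. Alternatives were RLE size factors, library totals without composition factors (chosen after seeing the data), at least 10 reads in 3 libraries, DESeq2 1.42.0, a replicate block, 1 fit of all 21 libraries, a threshold of 0.05, lanes, and each library left out. Scripts used Python 3.11.15, pandas 2.3.3, numpy 2.4.6, scipy 1.17.1 and matplotlib 3.10.9.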

Additional observations from a re-analysis of the deposited data

Results flagged for a closer look

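Rspo3 was the 1 gene of the 10 whose difference between EC and whole translatome was called as unequal in the organs, by the interaction term of a 12-library edgeR fit. The log2 fold changes were -2.76 in brain and -0.99 in kidney, and the interaction was -1.74 (SE 0.15, adjusted p = 5.8e-08). Rspo3 had 2.50, 2.34 and 1.93 RPKM in the brain EC translatome and 5.90, 6.42 and 6.01 in the kidney EC translatome, against 18.4 to 18.9 and 13.5 to 17.7 in the whole translatomes. Over the alternatives the interaction ranged from -1.85 without kidney translatome replicate 1 to -1.64 without brain EC translatome replicate 3, and it was called in all of them. The meninges and mesenchyme marker sum was higher in brain EC (106 to 143 RPKM) than in the brain translatome (62.6 to 73.4). In kidney it was lower in EC (133 to 211 RPKM) than in the whole translatome (388 to 509). In both EC groups 5 of 5 markers had 1 RPKM or more. The sum of nephron and stroma markers was 34.9 to 47.0 RPKM in kidney EC, against 232 to 277 in the kidney translatome. Their part in the difference was not tested.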

How the results depend on the processing

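Counts are of the 10 genes. At an adjusted p under 0.05, 4 were higher and 2 lower in the brain translatome than the transcriptome, 5 higher and 2 lower in the Emx1-lineage than the brain transcriptome, 2 higher in the kidney translatome and 3 different in the organ comparison of EC translatomes (2 with DESeq2). In the Emx1-lineage against the brain translatome, 1 was higher with RLE factors and with at least 10 reads in 3 libraries, and 0 with library totals, in the fit of all 21 libraries and with the replicate block; the fit of all 21 also left 1 lower there, and 1 lower in brain against kidney total RNA. For the brain translatome against the transcriptome, 1 was lower with DESeq2, RLE factors, library totals or the replicate block, and 1 was higher within the lane. With the replicate block, 2 were higher and 1 lower in the kidney translatome (0 higher within the lane), and 2 differed in the organ comparison of translatome with transcriptome.

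With a library left out, the counts ranged from 0 to 1 higher and 1 to 3 lower in the Emx1-lineage against the brain translatome, from 2 to 4 higher and 1 to 2 lower in the Emx1-lineage against the brain transcriptome, from 6 to 9 lower in the brain EC against the brain translatome, from 3 to 4 lower in the kidney EC against the kidney translatome, from 1 to 2 lower in brain against kidney total RNA, from 0 to 1 lower in the brain translatome, and from 0 to 1 higher in the kidney translatome.

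The differences that changed sign were not called in the report's fits, though Ttr in kidney was called with the block. In the kidney translatome against the transcriptome, leaving out a library gave log2 fold changes from -0.28 to 0.36 for Lmx1a, -0.18 to 0.17 for Wnt2b, -0.092 to 0.35 for Wnt8b, -0.023 to 0.063 for Rspo1 and -1.23 to 0.82 for Rspo2. Within the lane they were 0.28 for Lmx1a, 0.30 for Wnt2b and -0.50 for Ttr, and -0.043 for Lmx1a in brain. Wnt2b in kidney was 0.0059 with DESeq2, 0.0043 with RLE factors, 0.0063 with the read filter and 0.0003 with library totals. Leaving out a library gave -0.39 to 0.081 for Wnt2b in the kidney EC against the kidney translatome, and, in the organ comparison of translatome with transcriptome, -0.16 to 0.50 for Lmx1a and -0.42 to 1.70 for Rspo2. The causes were not tested.

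The replicate numbers of the other comparisons pair no libraries by tissue, and same-numbered libraries did not all deviate together. With the replicate number as a block there, Wnt8b (0.39, adjusted p = 0.00285) and Rspo3 (0.27, adjusted p = 0.00248) lost their call in the Emx1-lineage against the brain translatome and Lmx1a gained one (-0.64, adjusted p = 0.000516), as did Wnt3a against the brain transcriptome (0.60, adjusted p = 0.000449) and Wnt2b in the brain EC translatome (-0.68, adjusted p = 0.000697). Beside these and the values in the report, the block changed no call of the 10 genes. Brain EC, kidney EC and Emx1-lineage libraries each had a lane of their own, so lane and group cannot be told apart.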
